A study of Rattus norvegicus with 12 samples.

Results

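Connecting tubule and principal cells (CNT/PC) line the last part of the nephron and the collecting duct. In rat kidneys they formed 1 of 25 low-level clusters that the authors named, and the nuclei described here are those that carry this cluster name in the deposited table. They numbered 9963 of 217132 nuclei, or 4.59%. The table came from single-nucleus RNA sequencing of 12 male ZSF1 rats, with 3 rats in each of 4 groups.

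For all rats the labels give the strain name ZSF1-LeprfaLeprcp/Crl, which names mutant alleles of the leptin receptor. The name does not say which alleles the lean rats carry. The paper treats lean and obese as different genotypes and calls the obese rats diabetic. Obese rats received vehicle, the soluble guanylate cyclase (sGC) activator BAY 1101042 (runcaciguat, sGCact) or the sGC stimulator BAY 1165747 (sGCstim) for 12 weeks, starting at an age of 13 to 14 weeks. Both drugs were given at 3 mg/kg, sGCact 2 times a day and sGCstim 1 time a day, so the drug and the number of daily doses cannot be told apart. Lean rats served as controls and received neither drug nor vehicle, so genotype, obesity with diabetes, and dosing cannot be told apart either. The sequenced rats were 3 of 6 lean rats and 3 of 10 rats in each obese group, and each library came from a small piece of frozen kidney. The groups are called lean, vehicle-treated obese, sGCact and sGCstim below, and single rats are given by the names that the table uses, such as RK1_4.

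Principal cells take up sodium through the epithelial sodium channel, of which Scnn1g encodes a subunit, and water through aquaporin 2, encoded by Aqp2. Aldosterone controls the first of these transports and vasopressin the second. Connecting tubule cells stand upstream of the collecting duct and share much of this machinery, while the intercalated cells that lie between them handle acid and base. Soluble guanylate cyclase is the receptor for nitric oxide and makes the messenger cGMP.

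The expression of Aqp2, Scnn1g and other genes was not analysed here, so the name CNT/PC rests on the authors' annotation. The other names that the authors gave to the same nuclei were examined instead. Of the 9963 nuclei, 9942 carried the high-level name DCT/CNT/PC, where DCT is the distal convoluted tubule and CNT/PC as above, and 21 carried the name of the proximal tubule. At the intermediate level 9934 were called CNT/PC, while 7 were called DCT, 1 DCT/CNT and 21 proximal tubule. A further 109 nuclei of the neighbouring cluster DCT/CNT carried the intermediate name CNT/PC and are not counted among the members. On the authors' map 56 of the 9963 nuclei lay outside the main body of the cluster, and 19 of these were among the nuclei with the proximal tubule name.

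The number of CNT/PC nuclei ranged from 271 in RK7_4 to 1308 in RK43_4. They held 18329517 unique molecular identifiers (UMIs, each marking 1 captured transcript) in all, with 457 to 5600 UMIs in a nucleus. Between rats 12 barcodes were shared, which touched 24 of the CNT/PC nuclei. The libraries differed in depth and in makeup. The median over all nuclei of a rat was 1688 to 2914 UMIs in lean rats and 783 to 1760 in the 9 obese rats, and proximal tubule nuclei made up 32.6% to 92.1% of a rat's nuclei. RK9_4 stood apart with 43484 nuclei, of which 92.1% were proximal.

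The share of CNT/PC among all nuclei varied widely between rats and did not pass the test in any comparison of groups. In lean rats it was 4.81%, 4.47% and 5.83%. In vehicle-treated obese rats it was 2.57%, 0.662% and 6.75%. Under sGCact it was 6.16%, 4.61% and 11.6%, and under sGCstim it was 7.23%, 9.59% and 1.98%. The lean rats were close to each other, whereas each obese group held rats on both sides of the lean range or, under sGCact, within and above it. The highest share, in RK46_4, was 17.5 times the lowest, in RK9_4. Counting error was small beside this spread, as the 95% Wilson interval was 0.590% to 0.743% in RK9_4 and at most 12.3% in RK46_4. These intervals cover counting error only.

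The mean shares were 5.04% ± 0.707 in lean, 3.33% ± 3.12 in vehicle-treated obese, 7.46% ± 3.68 in sGCact and 6.27% ± 3.90 in sGCstim rats (SD, n = 3 each). The log odds of being a CNT/PC nucleus were compared by limma, with p adjusted over the 25 clusters by the Benjamini-Hochberg method and a threshold of 0.05. Vehicle-treated obese and lean rats differed by -0.81 (SE 0.628, 95% interval -2.17 to 0.54, adjusted p = 0.389 by limma). In this comparison 12% of all clusters passed. The difference from vehicle was 1.16 under sGCact (interval -0.19 to 2.52, adjusted p = 0.496 by limma) and 0.86 under sGCstim (interval -0.50 to 2.21, adjusted p = 0.677 by limma). Neither drug passed for CNT/PC, and the intervals of the odds reach from 0.823 to 12.4 times those under vehicle for sGCact and from 0.606 to 9.16 times for sGCstim. Between sGCact and sGCstim the difference was 0.31 (interval -1.05 to 1.66, adjusted p = 0.964 by limma). In these 3 comparisons of obese groups 0% of the clusters passed, with 0 of 25 clusters at an unadjusted p under 0.05 by limma. By edgeR 0 clusters passed in each of the 3, and by DESeq2 2 clusters passed for sGCact against vehicle and 0 in the others. All 9 obese rats against the lean rats gave -0.14 (SE 0.513, interval -1.25 to 0.97, adjusted p = 0.977 by limma), where 4% of all clusters passed. The sign of this last difference turned with other scales and denominators, and among nuclei outside the proximal tubule it was 0.42. Single rats moved the differences that involve vehicle. Without RK9_4, the vehicle-treated rat with the lowest share, they were -0.19 for vehicle against lean, 0.54 for sGCact against vehicle and 0.23 for sGCstim against vehicle. Without RK16_4, the vehicle-treated rat with the highest share, they were -1.38, 1.73 and 1.42 in the same order, with adjusted p of 0.0651, 0.0524 and 0.0993 by limma, none of which passed. The sGCstim difference was also 0.53 without RK58_4 and 1.36 without RK61_4.

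Across the 12 rats the CNT/PC share of all nuclei was lower where the proximal tubule share was higher. Pearson's r was -0.781 (permutation p = 0.00268, adjusted p = 0.00804 over 3 relations) and Spearman's rho was -0.762 (permutation p = 0.00546, adjusted p = 0.0164). Without RK7_4 and RK9_4, the rats whose proximal share lay farthest from the median in this calculation, r was -0.624. Both shares are parts of the same total and cannot vary independently. The CNT/PC share of all nuclei and the rat's median UMIs had an r of 0.371 (permutation p = 0.236, adjusted p = 0.353) and a rho of 0.497 (permutation p = 0.105, adjusted p = 0.157). Without RK1_4 and RK7_4, the rats farthest from the median depth, this r was 0.578.

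Among distal nuclei alone the share of CNT/PC was far more even. The distal nuclei were the 37192 nuclei of 6 clusters, namely CNT/PC, DCT, DCT/CNT, type A intercalated cells (IC-A), type B intercalated cells (IC-B) and IC-A/CD-Trans, a small cluster that the authors named between type A cells and the collecting duct. CNT/PC made up 26.8% of them. The distal nuclei as a whole were 2.51% to 44.1% of a rat's nuclei, a range set by RK9_4 and RK46_4, the same rats that held the extremes of the CNT/PC share. Within them the CNT/PC share was 29.8%, 23.1% and 28.4% in lean rats. It was 27.7%, 26.4% and 21.4% in vehicle-treated obese rats. Under sGCact it was 27.3%, 28.7% and 26.4%, and under sGCstim 29.6%, 26.6% and 29.5%. All groups overlapped, and the highest value was 1.39 times the lowest. The coefficient of variation over the 12 rats was 9.61%, against 56.2% for the share of all nuclei.

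No comparison of the CNT/PC share of distal nuclei passed the test. The difference in log odds was -0.10 for vehicle-treated obese against lean rats (95% interval -0.37 to 0.17, adjusted p = 0.513 by limma). It was 0.12 for sGCact against vehicle (interval -0.15 to 0.39, adjusted p = 0.664 by limma) and 0.18 for sGCstim against vehicle (interval -0.09 to 0.44, adjusted p = 0.524 by limma). It was -0.05 for sGCact against sGCstim (interval -0.32 to 0.22, adjusted p = 0.910 by limma). The 9 obese rats together had odds of 1.00 times those of the lean rats, with an interval of 0.803 to 1.25. In all 5 comparisons 0% of the 6 distal clusters passed, and 0 of 6 had an unadjusted p under 0.05 by limma. These intervals are about the distal nuclei that were captured and do not cover the size of the distal nephron in the kidney. The distal share and the rat's median UMIs had an r of 0.0138 (permutation p = 0.966, adjusted p = 0.966) and a rho of 0.0140 (permutation p = 0.974, adjusted p = 0.974). Without RK1_4 and RK7_4 this r was -0.354, so its sign rests on those rats.

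**Figure D1:**
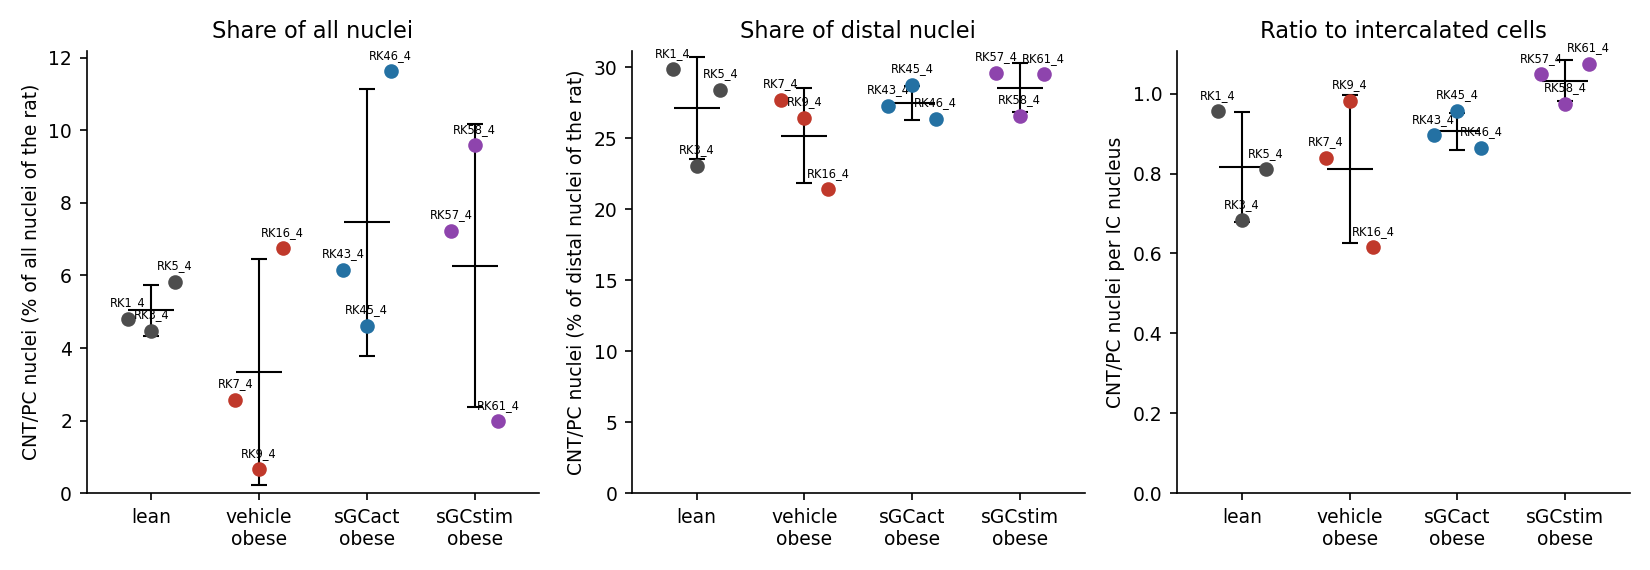
CNT/PC nuclei of each rat in percent of all its nuclei (left), in percent of its distal nuclei (middle) and per intercalated nucleus (right). Each point is a rat, and the bars give the mean and SD of 3 rats. The share of all nuclei runs from 0.662% to 11.6%, whereas the share of distal nuclei stays between 21.4% and 29.8%.

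The clusters whose numbers followed those of CNT/PC most closely from rat to rat were its neighbours in the distal nephron. Likeness was measured as the SD over the 12 rats of the log2 ratio of CNT/PC nuclei to nuclei of the other cluster, a description without a test. It was smallest for IC-A (0.17), then DCT/CNT (0.24), DCT (0.30) and IC-B (0.41), of 24 other clusters. There were 1.37 to 2.06 CNT/PC nuclei per IC-A nucleus. There were 1.58 to 3.03 per DCT/CNT nucleus, with the highest value in RK61_4. The ratio to DCT was 0.708 to 1.34 and the ratio to IC-B 1.09 to 2.56. IC-A/CD-Trans was unlike the other distal clusters with an SD of 1.83, in rank 20 of 24, and had 0 to 83 nuclei per rat. For the thick ascending limb (TAL) the SD was 1.11, and the largest was 3.66 for PTnov2, a proximal tubule cluster.

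CNT/PC nuclei were fewer than the nuclei of the 3 intercalated clusters together in 10 of 12 rats. Per intercalated nucleus there were 0.956, 0.683 and 0.811 CNT/PC nuclei in lean rats. The ratio was 0.839, 0.983 and 0.615 in vehicle-treated obese rats. Under sGCact it was 0.896, 0.957 and 0.865, and under sGCstim it was 1.05, 0.975 and 1.07. The 3 sGCstim rats lay above the 3 sGCact rats in all 9 pairs, with a log2 difference of -0.19 for sGCact against sGCstim (exact two-sided permutation p = 0.1, the smallest that 3 against 3 rats allow). Of the 22 clusters outside the intercalated cells, 13.6% likewise did not overlap between the drugs in their ratio to intercalated nuclei. The other comparisons gave exact permutation p of 1 for vehicle against lean, 0.5 for sGCact against vehicle, 0.2 for sGCstim against vehicle and 0.345 for all obese against lean rats.

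UMIs per nucleus measure how many transcripts were captured. In CNT/PC the median was 2574.5, 1965.5 and 1428 UMIs in lean rats. It was 1227, 2036 and 1509.5 in vehicle-treated obese rats. It was 2019.5, 1756 and 1650 under sGCact, and 1466, 1541 and 1531 under sGCstim. Lean and vehicle-treated obese rats overlapped, and the 3 sGCstim rats were close to each other. On the log2 scale the difference was -0.31 for vehicle-treated obese against lean rats (95% interval -0.91 to 0.28, adjusted p = 0.398 by limma over 18 clusters with at least 20 nuclei in every rat), where 16.7% of the clusters passed. It was 0.21 for sGCact against vehicle (interval -0.39 to 0.81, adjusted p = 0.770 by limma, 5.56% of clusters passed) and -0.04 for sGCstim against vehicle (interval -0.64 to 0.56, adjusted p = 0.959 by limma, 0% passed). All obese against lean rats gave -0.26 (interval -0.74 to 0.23, adjusted p = 0.310 by limma, 11.1% passed). Without RK1_4, the lean rat with the most UMIs, this difference was -0.050, and without RK5_4, the lean rat with the fewest, it was -0.47 (adjusted p = 0.0961 by limma).

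The sGCact rats lay above the sGCstim rats in median UMIs in all 9 pairs, and the means were 1809 ± 190.3 and 1513 ± 40.7 UMIs (SD, n = 3 each, exact permutation p = 0.1). By limma the log2 difference of 0.25 did not pass (interval -0.34 to 0.85, adjusted p = 0.760, 0% of clusters passed). At an unadjusted p under 0.05 limma gave 0 of 18 clusters for this comparison and 1 of 18 for sGCstim against vehicle. In 27.8% of the 18 clusters the drugs did not overlap in this measure, DCT, DCT/CNT and IC-B among them, all with sGCact higher.

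The ratio of CNT/PC UMIs to those of the other distal nuclei of the rat was higher in obese than in lean rats. The CNT/PC UMIs themselves were not higher in the mean of the obese rats. The difference in the ratio did not pass the threshold after adjustment. The ratio of the CNT/PC median to the median of the other distal nuclei was 0.779, 0.783 and 0.763 in lean rats. It was 0.829, 0.973 and 0.963 in vehicle-treated obese rats. It was 0.950, 0.867 and 0.842 under sGCact, and 0.791, 0.862 and 1.21 under sGCstim. All 9 obese rats lay above all 3 lean rats. The lean values were close together, and the lowest obese value, in RK57_4, was only just above them. The mean ratio was 0.775 ± 0.0108 in lean rats (SD, n = 3) and 0.920 ± 0.124 in obese rats (SD, n = 9).

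The difference between obese and lean rats was 0.24 on the log2 scale, or 1.18-fold, with an exact two-sided permutation p = 0.00909, the smallest that 9 against 3 rats allow. Adjusted over the 10 exact tests of the ratio to intercalated nuclei and of this measure, the permutation p was 0.0909, which does not pass 0.05. Leaving out each rat in turn gave 0.19 to 0.26, with exact permutation p of 0.0121 to 0.0364. Each of these p is the smallest that the remaining rats allow. They were fixed by the lack of overlap and add no further evidence. With all other nuclei of the rat as the reference, in place of the distal ones, the difference was 0.64 (exact permutation p = 0.0455). With that reference the groups overlapped, at 0.831 to 0.927 in lean and 0.873 to 2.26 in obese rats. The highest value was in RK9_4, where 92.1% of the nuclei were proximal. The part of makeup in this difference was not tested. Vehicle-treated obese rats alone were 0.25 above lean rats (exact permutation p = 0.1, the smallest possible). Among obese groups the differences were -0.05 for sGCact against vehicle, 0.03 for sGCstim against vehicle and -0.08 for sGCact against sGCstim (exact permutation p = 0.7, 0.9 and 0.9).

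The same ratio was formed for each distal cluster with at least 20 nuclei in every rat against the rest of the distal nuclei. CNT/PC was the 1 of 5, or 20%, in which obese and lean rats did not overlap. For vehicle-treated obese against lean rats 40% did not overlap, namely CNT/PC, which was higher, and DCT, which was lower. The log2 difference between obese and lean rats was -0.18 for DCT, 0.04 for DCT/CNT, -0.11 for IC-A and -0.17 for IC-B, with exact permutation p of 0.464, 0.655, 0.4 and 0.191.

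The ratio can move with the CNT/PC nuclei or with their reference, and both values are therefore given. The other distal nuclei had a median of 3306, 2509 and 1872 UMIs in lean rats and of 1270.5 to 2125 in obese rats. Thus both CNT/PC and the reference were at their highest in a lean rat. The mean over rats was 1989 UMIs in lean and 1637 in obese rats for CNT/PC. For the reference it was 2562 and 1795 UMIs. The higher ratio in obese rats thus went with fewer UMIs in both, and the reference was lower by more. Against single neighbours, the CNT/PC median was 0.743 to 0.760 times that of IC-B in lean rats and 0.772 to 1.80 times in obese rats, without overlap. Against DCT it was 0.757 to 0.774 times in lean and 0.725 to 1.49 times in obese rats, with RK57_4 below the lean rats. Against DCT/CNT it was 0.698 to 0.773 and 0.697 to 0.889 times, and against IC-A 0.826 to 0.949 and 0.903 to 1.21 times, and the groups overlapped in both. Depth over all nuclei of the rat also differed between lean and obese rats, as given above, and its part in the ratio was not tested.

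**Figure D2:**
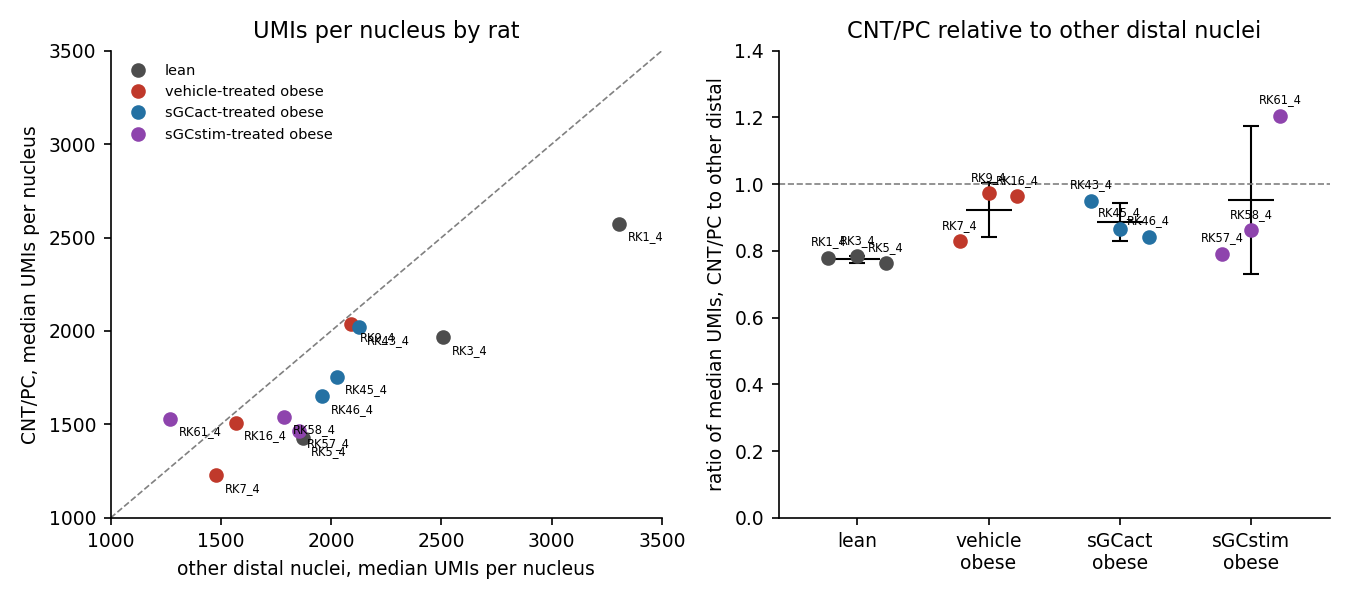
Median UMIs per CNT/PC nucleus against the median of the other distal nuclei of the same rat (left, with the line of equal values) and the ratio of the 2 medians by group (right, with the mean and SD of 3 rats). The lean rats sit at 0.763 to 0.783 and the obese rats at 0.791 to 1.21.

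The number of expressed genes per CNT/PC nucleus followed the UMIs. The median was 1475.5, 1226.5 and 904 genes in lean, 736, 1108.5 and 1012 in vehicle-treated obese, 1181, 1022 and 1080 in sGCact and 914, 966 and 1013 in sGCstim rats. The sGCact rats again lay above the sGCstim rats in all 9 pairs, and in 11.1% of clusters the drugs did not overlap in this measure. None of the 5 comparisons passed by limma for CNT/PC, with adjusted p of 0.265 (vehicle against lean), 0.762 (sGCact against vehicle), 0.955 (sGCstim against vehicle), 0.800 (sGCact against sGCstim) and 0.251 (all obese against lean). The share of clusters that passed was 22.2%, 5.56%, 0%, 0% and 11.1% in the same order. In the 2 comparisons with 0%, limma gave 2 and 0 of 18 clusters at an unadjusted p under 0.05.

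Nuclei with 1000 to 2000 UMIs were compared as well, since genes depend on UMIs. There the median of CNT/PC was 902 to 1170 genes in lean, 767.5 to 975.5 in vehicle-treated obese, 967 to 1035 in sGCact and 899 to 984.5 in sGCstim rats. Within this window CNT/PC nuclei had up to 103 fewer genes than the other distal nuclei of the rat, and in RK1_4 5 more. The window did not make depth equal. In RK57_4, with 103 fewer genes, the median was 1416 UMIs in CNT/PC and 1558 in the other distal nuclei. In RK1_4 these medians were 1757 and 1724 UMIs. The part of depth in the gene differences was not tested.

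The percentage of UMIs on mitochondrial genes was low in CNT/PC nuclei, with a median of at most 0.240% in every rat. Nuclei hold no mitochondria, so such UMIs come from RNA outside the nucleus. The median was 0.172%, 0.225% and 0.0550% in lean rats, and 0.0936%, 0.138% and 0.240% in vehicle-treated obese rats. It was 0.0605%, 0% and 0% under sGCact, and 0%, 0.0605% and 0.223% under sGCstim. In the 3 rats with a median of 0, between 52.1% and 66.9% of the CNT/PC nuclei had no mitochondrial UMI. In each lean rat the CNT/PC median was above that of the other distal nuclei (0.0407%, 0.0578% and 0%). It was also above that of all other nuclei of the lean rat (0.0968%, 0.159% and 0%). In obese rats neither order held throughout. Of the CNT/PC nuclei in lean rats, 14.8%, 15.8% and 0.710% had more than 1% mitochondrial UMIs.

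All 3 sGCact rats lay below all 3 vehicle-treated obese rats, in 9 of 9 pairs, and CNT/PC was the 1 of 18 clusters (5.56%) in which these groups did not overlap. The difference was -1.10 on the scale of log2(percentage + 0.1), with a 95% interval of -2.52 to 0.33, and did not pass (adjusted p = 0.536 by limma, exact permutation p = 0.1, the smallest possible). The other 4 comparisons had adjusted p of 0.710 to 0.922 by limma. In all 5 comparisons 0% of the clusters passed, with 0 or 1 of 18 clusters at an unadjusted p under 0.05 by limma. The other distal nuclei of the rat had medians of 0% to 0.0618% under sGCact and 0% to 0.293% in vehicle-treated obese rats. Over all nuclei outside CNT/PC the medians were 0.0391% to 1.30% and 0.545% to 3.78%, with overlap. The part of these levels in the CNT/PC values was not tested.

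S and G2M scores rate each nucleus for genes of the DNA replication phase and of the phase before and during division. The mean S score of CNT/PC nuclei was 0.00430, 0.00456 and 0.000883 in lean rats and 0.00569, 0.00589 and -0.00195 in vehicle-treated obese rats. It was 0.00138, -2.34e-06 and -0.000286 under sGCact and 0.00633, 0.00711 and 0.00304 under sGCstim. Each sGCact rat lay below each sGCstim rat. Among 18 clusters CNT/PC ranked 2 to 8 from the highest S score, depending on the rat, and 3 by the mean over rats.

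The difference in S score between sGCact and sGCstim was -0.00513 (95% interval -0.0101 to -0.000183). It had an unadjusted p of 0.0432 by limma but did not pass over the 18 clusters (adjusted p = 0.259 by limma, 0% passed). In 22.2% of the clusters the drugs did not overlap in this score. The other comparisons had adjusted p of 0.987 (vehicle against lean, 0% of clusters passed), 0.705 (sGCact against vehicle, 0% passed), 0.446 (sGCstim against vehicle, 16.7% passed) and 0.961 (all obese against lean, 0% passed) by limma. At an unadjusted p under 0.05 there were 2 to 4 of 18 clusters in each of the 5 comparisons by limma.

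Mean G2M scores of CNT/PC were below 0 in every rat, from -0.0194 in RK43_4 to -0.00747 in RK58_4. The difference was -0.00548 between sGCact and sGCstim (95% interval -0.0116 to 0.000652, adjusted p = 0.217 by limma, 0% of clusters passed). Without RK46_4, the sGCact rat with the highest score, it was -0.00847 and passed (adjusted p = 0.0477 by limma). Of 504 differences with a rat left out, this was the 1 that became stronger in this way. The share of clusters that passed without RK46_4 is not given, so this pass is not read as a result about CNT/PC. The other comparisons had adjusted p of 0.785 (vehicle against lean, 38.9% of clusters passed), 0.309 (sGCact against vehicle, 5.56% passed), 0.876 (sGCstim against vehicle, 0% passed) and 0.925 (all obese against lean, 16.7% passed) by limma. In the 2 comparisons with 0%, limma gave 4 (sGCact against sGCstim) and 3 of 18 clusters at an unadjusted p under 0.05. By the authors' phase calls 40.5% of CNT/PC nuclei were in S, 35.9% in G1 and 23.6% in G2M, which were assigned from these scores and are not read as cycling.

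**Figure D3:**
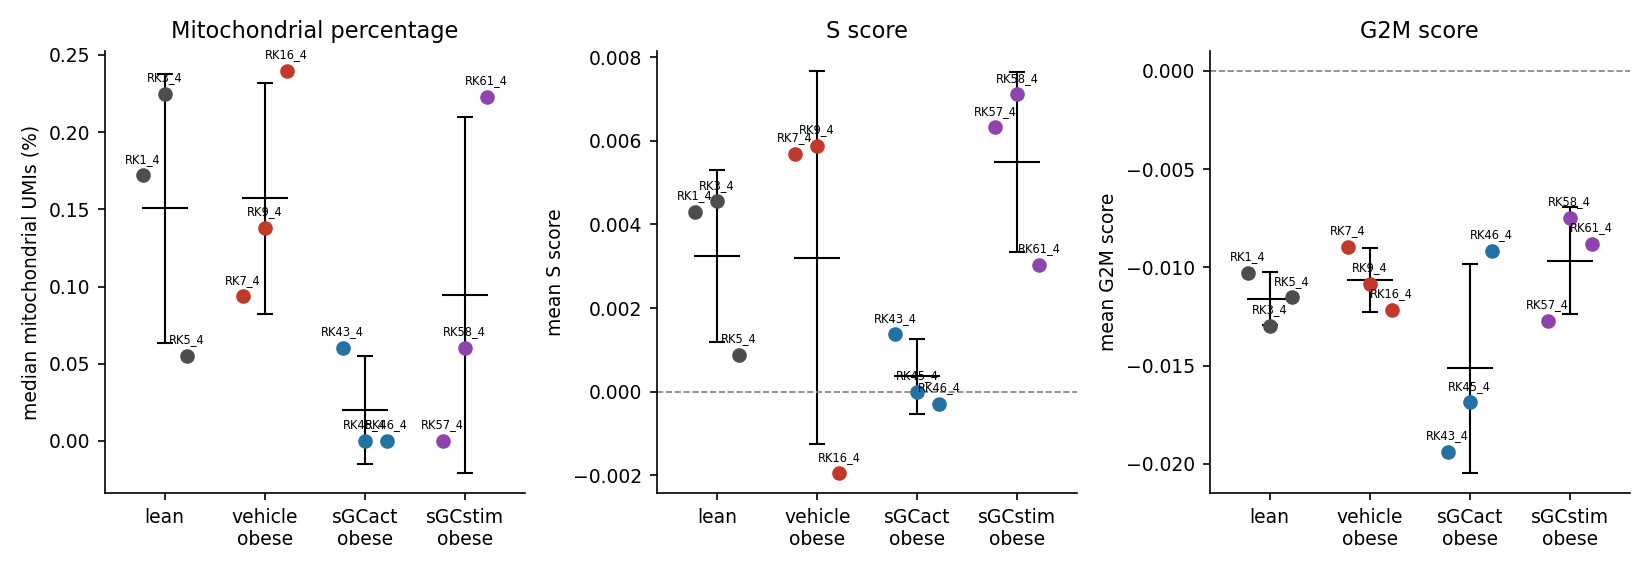
Median mitochondrial percentage (left), mean S score (middle) and mean G2M score (right) of the CNT/PC nuclei of each rat, with the mean and SD of 3 rats per group. The sGCact rats lie at 0% to 0.0605% mitochondrial UMIs and the vehicle-treated obese rats at 0.0936% to 0.240%.

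On the authors' two-dimensional map, drawn after batch correction, the CNT/PC nuclei formed an elongated body that led away from the cluster DCT/CNT. The distance of a nucleus from the centre of DCT/CNT was taken as a measure of its place, in map units. Such distances show arrangement only and are no measure of how much expression differs. Median distances were 1.56 for DCT/CNT itself, 4.32 for DCT and 5.94 for CNT/PC, against 13.8 for IC-A and 13.4 for IC-B. The distances of CNT/PC nuclei had 2 peaks, with 885 nuclei at 4.5 to 5 units and 896 at 7.5 to 8 units, and a shallow dip of 667 nuclei at 6.5 to 7 units. The labels do not say which part holds connecting tubule and which holds principal cells, and no names are given to them here.

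The lean rats had more of their CNT/PC nuclei in the far part than any obese rat. The pattern was chosen after the values were seen and is given without a test. With the line drawn at 6.75 units, in the middle of the dip, 3800 nuclei lay beyond it and 6163 before it, and 1377 nuclei (13.8%) lay within 0.5 units of the line. Beyond it lay 54.0%, 53.5% and 54.5% of the CNT/PC nuclei in lean rats. The far share was 44.3%, 47.9% and 26.5% in vehicle-treated obese rats, 29.6%, 32.8% and 28.0% under sGCact, and 44.2%, 29.5% and 38.4% under sGCstim. The median distance was 6.83 to 7.01 units in lean and 5.29 to 6.51 units in obese rats. CNT/PC was the 1 of 18 clusters (5.56%) in which this median did not overlap between lean and obese rats. All 18 were measured from the centre of DCT/CNT, a reference chosen for CNT/PC. For clusters far from that centre, such as IC-A, the distance says little about arrangement within the cluster. The count therefore does not show that the shift is particular to CNT/PC.

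The place of the line mattered. With a line at 6 units 57.8% to 78.7% of the nuclei lay beyond it in lean and 36.9% to 53.8% in obese rats, still without overlap. With a line at 7.5 units the groups overlapped, at 25.4% to 38.8% and 19.8% to 37.7%. The lean rats were not alike in detail, since 53.2% and 45.7% of the nuclei lay between 6 and 7.5 units in RK1_4 and RK5_4 but 19.0% in RK3_4, against 8.63% to 31.7% in obese rats. With nuclei of at least 1000 UMIs alone the far share was 53.8% to 57.6% in lean and 21.4% to 48.6% in obese rats.

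Far and near nuclei also differed in depth. The median of far nuclei was 0.655 to 1.29 times the UMIs of near nuclei in the same rat. It was above 1 in RK1_4, RK5_4 and RK61_4 and below 1 in the other 9 rats. Relative to the other distal nuclei, near nuclei had 0.691 to 0.880 times the UMIs in lean and 0.907 to 1.10 times in obese rats, while far nuclei had 0.719 to 0.814 and 0.631 to 1.42 times. The near part was the one in which lean and obese rats did not overlap. Per DCT/CNT nucleus there were 0.816 to 0.846 near nuclei in lean rats and 1.01 to 1.87 in obese rats, without overlap. Counts of near and far nuclei rest on the same line as the far share, which was chosen after the values were seen. They restate that share in part and add no separate evidence. Far nuclei per DCT/CNT nucleus were 0.940 to 1.01 in lean against 0.418 to 1.16 in obese rats. Near nuclei per IC-A nucleus were likewise apart, but per DCT and per IC-B nucleus lean and obese rats overlapped. For example, lean RK1_4 had 369 near, 606 DCT and 322 IC-B nuclei, and obese RK7_4 had 151, 266 and 156. Loop of Henle nuclei, part of which lie in the medulla, made up 16.0% to 26.2% of the nuclei of lean rats. In obese rats they made up 1.63% to 12.4%. These are shares of all nuclei, so they also move with the proximal tubule share. The part of such differences in makeup in the far share was not tested.

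**Figure D4:**
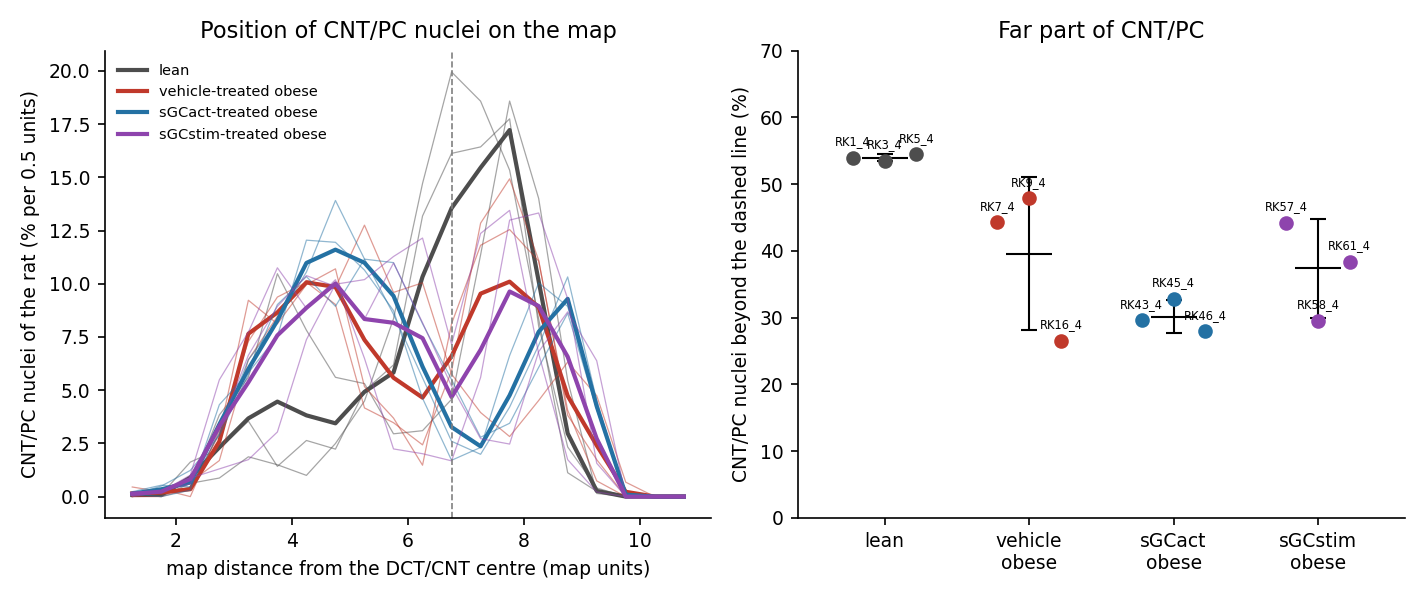
CNT/PC nuclei by their map distance from the centre of DCT/CNT (left, in percent of the CNT/PC nuclei of a rat per 0.5 map units, thin lines for rats and thick lines for group means) and the percentage beyond the dashed line at 6.75 units (right, with the mean and SD of 3 rats). The lean rats lie at 53.5% to 54.5% and the obese rats at 26.5% to 47.9%.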

How the data were processed

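Single-nucleus libraries (10x) of 12 rats were aligned by the authors with an annotation that counts introns. The submitters' processing notes name Cell Ranger 6, Seurat and rn6. Ambient RNA was corrected with SoupX, doublets were found with DoubletFinder, nuclei with too few or too many genes or a high mitochondrial share were left out, and the merged rats were integrated with Harmony, clustered and annotated by hand. The authors deposited UMIs per nucleus as counts, the mitochondrial share in percent of UMIs, and S and G2M scores without a fixed range. In the paper the ambient correction came before the rats were merged, and whether it entered these counts and percentages was not checked. Genes per nucleus, names and map coordinates were deposited as they are.

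Rats, taken to their group by the group names of the table, were the replicates. Log odds of shares (0.5 nuclei added to the cluster, 1 to the total), log2 medians of UMIs and genes, log2(median mitochondrial percentage + 0.1) and mean scores entered linear models in limma 3.58.1 (R 4.3.3) over 4 groups of 3 rats (8 residual degrees of freedom), across 25, 6 or 18 clusters, with Benjamini-Hochberg adjustment and a threshold of 0.05. Single ratios were compared by exact two-sided permutation tests, and relations across rats with 100000 resamples. Scripts were tested on simulated data. Depth was 11898496 to 49272672 UMIs and 10488 to 43484 nuclei per rat. Other software was scipy 1.17.1, pandas 2.3.3 and numpy 2.4.6. The measures and lists were chosen with earlier results of these data known. The text names the distal clusters and those whose numbers were most or least like CNT/PC. Alternatives used other scales and denominators, edgeR 4.0.16, DESeq2 1.42.0, filters on UMIs and mitochondrial percentage, a fit of the compared groups alone, thinning to 10488 nuclei per rat, and each rat left out in turn. The differential proportion analysis of the study, which resamples nuclei, was not repeated, and counts per gene were not analysed here.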

Additional observations from a re-analysis of the deposited data

How the results depend on the processing

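With 3 rats per group no exact test of 2 groups can fall below 0.1, and the intervals of the shares leave room for large changes, so the comparisons that did not pass show no absence of change. No paired analysis was possible because the table names rats by animal identifiers with no replicate number. Of 222 values recomputed under other settings with all rats kept, 197 kept their direction and their side of the threshold, 24 changed sign and 1 moved by more than the spread between rats. None of the sign changes concerned a difference that had passed, and the cause was not tested.

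For the CNT/PC share of all nuclei, all obese against lean rats (-0.14) became 0.0016 on the arcsine scale, 0.27 with at least 1000 UMIs, 0.31 with at most 1% mitochondrial UMIs, 0.25 as centred log-ratio, 0.42 outside the proximal tubule, 0.065 by edgeR with the total as library size, 0.43 by edgeR with TMM and 0.24 by DESeq2 (the last 3 as natural log ratios). Vehicle against lean became 0.17 outside the proximal tubule. For the share of distal nuclei, vehicle against lean became 0.084 with at most 1% mitochondrial UMIs and all obese against lean -0.00022 on the arcsine scale. For vehicle against lean, the mitochondrial difference became -0.30 with 1000 to 2000 UMIs and -0.047 with at least 1000, the S score difference 0.0011 and 0.00015 under the same filters, the G2M score difference -0.00014 with at least 1000 UMIs and -0.0013 as a median, and the ratio to intercalated nuclei 0.11 with at most 1% mitochondrial UMIs. The S score difference of all obese against lean rats became 0.0012 with 1000 to 2000 UMIs. UMIs relative to other distal nuclei became -0.034 as a mean, -0.53 against all other nuclei of the rat and -0.043 with at least 1000 UMIs for sGCstim against vehicle, and 0.45 and 0.0061 under the last 2 of these for sGCact against sGCstim.

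The relative UMIs of all obese against lean rats, the 1 difference with an unadjusted p under 0.05 by the exact permutation test, ranged from 0.20 to 0.64 (exact permutation p of 0.00909 to 0.0455) over 4 settings, namely a mean, all other nuclei as the reference and, both chosen after seeing the data, at least 1000 UMIs and other distal clusters weighted equally. The far share of the map, with settings likewise chosen after seeing the data, fell by 18.3 percentage points from lean to obese rats, and by 4.08 with a line at 7.5 units.

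Leaving out each rat in turn turned the direction of 34 of 504 differences, none of which had passed. The ranges were -0.20 to 0.63 for the share of all nuclei between sGCact and sGCstim (lowest without RK61_4) and -0.33 to 0.068 for all obese against lean, and for the share of distal nuclei -0.20 to 0.0039 for vehicle against lean and -0.11 to 0.070 for all obese against lean. For sGCstim against vehicle they were -0.21 to 0.15 in UMIs, -0.14 to 0.16 in genes, -0.00029 to 0.0036 in S score, -0.00010 to 0.0025 in G2M score and -0.15 to 0.15 in relative UMIs. For vehicle against lean they were -0.25 to 0.29 in mitochondrial percentage, -0.0014 to 0.0025 in S score and -0.17 to 0.17 in the ratio to intercalated nuclei. For all obese against lean they were -0.0014 to 0.00063 in S score and -0.0012 to 0.00049 in G2M score. For sGCact against vehicle the ratio to intercalated nuclei ranged from -0.0047 to 0.33. For sGCact against sGCstim relative UMIs ranged from -0.20 to 0.10 and the G2M score from -0.0085 to -0.0034, of which the lowest, without RK46_4, passed.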
